A study of Homo sapiens with 10 samples.

Results

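The genes described here are 68 splicing factors and heterogeneous nuclear ribonucleoproteins (hnRNPs), of 14884 genes named in the probe annotation used here. They were matched by a pattern of gene symbols and comprise the small nuclear ribonucleoprotein (snRNP) proteins named SNRP or SNRNP, the pre-mRNA processing factors named PRPF, LSM12, the U2AF and TRA2 genes, the SR proteins named SRSF, and the HNRNP genes with 4 of their pseudogenes. Genes of the SF3A and SF3B families, also covered by the choice, were not analysed here. HEK293T cells (a line derived from human embryonic kidney, with the large T antigen of SV40) were treated for 6 h with bacterial extracellular vesicles (bEVs) from 1 of 8 Lactobacillales strains, and RNA was measured on Affymetrix Human Gene 2.0 ST arrays. The bEVs came from L. acidophilus, L. rhamnosus, L. plantarum, L. salivarius, S. thermophilus, L. paracasei, L. fermentum and Lc. lactis (spelled Lc. lactics in its label), with 1 array each, and 2 arrays held control cells named control 1 and control 2. Each bEV was applied at its own maximum tolerated dose, so that strain and dose cannot be told apart, and RNA of triplicate samples was pooled into 1 array, although this was not stated for the controls. The cell line field of each label reads HEK293T, while the treatment names of 7 of the 8 bEV arrays read HEK294T, HEK295T, HEK296T or HEK297T. The labels' treatment text names Pk2 for every array, and how it relates to the bEVs is not stated. Whether the 2 controls were separate cultures is not stated either, and the p-values reflect no more than the scatter of these arrays. Between the controls this scatter may be technical. In the comparison of 8 bEV arrays with 2 controls it also holds differences between strains and their doses, because different treatments stand as 1 group.

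Values are log2 signals per probe set, with 1 probe set per gene, and a difference is a bEV value minus the mean of both controls on that log2 scale. All bEV arrays share this control mean, so the same sign in several of them is not several independent results. The quartiles of the 10 arrays were nearly equal, with medians from 4.62 to 4.67. Of the markers listed for HEK293T, 4 of 6 were measured, which here means that the annotation used names a probe set for them. VIM lay between 7.68 and 8.12, LIN28B between 8.32 and 8.69, KRT18 between 7.32 and 7.72 and PAX2 between 4.10 and 5.15. Of 10 markers of other cell types, 3 were measured, and ALB, APOA1 and PECAM1 lay between 1.81 and 3.64 over all arrays. The number of arrays limits the precision of every value, and signals of different probe sets cannot be set against each other. In bulk RNA, fewer cells that express a gene and less of its RNA per cell cannot be told apart.

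Splicing removes introns from pre-mRNA on the spliceosome, which is assembled from snRNPs, most of them an RNA that carries a ring of Sm proteins and further proteins of its own. U1 marks the 5′ splice site, U2 the branch point, and the U4/U6.U5 tri-snRNP brings in the catalytic core, which PRPF8 holds together. SR proteins mostly bind exonic enhancers and favor the use of nearby sites, whereas many hnRNPs bind intronic or exonic elements and can repress them, and both sets of proteins also act in RNA export, stability and translation.

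Promoter sequence is shown for some of the 11 members in which all 8 bEV arrays lay on the same side of both controls, because these carry the results below. SNRPD2 and HNRNPH3 had 3 windows each and TRA2A had 0, and they are not printed. SNRNP25 and PRPF18, with 1 window each, were also left out. The 150 bases before the RefSeq transcription start (GRCh38.p14) are given 5′ to 3′ on the gene's strand, with letters in capitals where a searched motif matched on either strand. The first 3 genes had lower signals and the other 3 had higher signals in the bEV arrays.
SNRPB, chr20:2470790-2470939, minus strand: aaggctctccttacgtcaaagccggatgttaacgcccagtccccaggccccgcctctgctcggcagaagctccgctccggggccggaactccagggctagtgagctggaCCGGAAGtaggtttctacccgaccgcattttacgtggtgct
SNRPF, chr12:95858802-95858951, plus strand: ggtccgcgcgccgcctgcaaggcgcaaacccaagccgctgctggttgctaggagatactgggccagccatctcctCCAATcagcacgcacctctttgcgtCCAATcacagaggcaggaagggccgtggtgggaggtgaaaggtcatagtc
SNRNP40, chr1:31296789-31296938, minus strand: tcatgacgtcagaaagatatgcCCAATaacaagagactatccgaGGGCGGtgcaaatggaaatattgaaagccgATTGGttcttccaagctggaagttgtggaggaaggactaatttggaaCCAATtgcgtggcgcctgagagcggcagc
SNRNP200, chr2:96305547-96305696, minus strand: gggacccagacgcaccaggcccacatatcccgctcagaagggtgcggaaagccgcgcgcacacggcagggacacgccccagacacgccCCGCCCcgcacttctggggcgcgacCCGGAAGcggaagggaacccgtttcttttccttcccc
PRPF8, chr17:1684868-1685017, minus strand: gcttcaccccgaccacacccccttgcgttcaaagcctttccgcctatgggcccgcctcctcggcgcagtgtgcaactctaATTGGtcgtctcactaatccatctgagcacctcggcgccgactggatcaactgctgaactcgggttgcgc
HNRNPUL2, chr11:62727458-62727607, minus strand: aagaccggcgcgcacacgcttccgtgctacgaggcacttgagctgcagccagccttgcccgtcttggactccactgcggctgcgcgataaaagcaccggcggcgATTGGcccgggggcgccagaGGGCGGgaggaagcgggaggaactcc

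A window was listed for 57 of the 68 members, and the 250 bases before the start were searched for 6 motifs on both strands, using the first window of each gene. CCGGAAG, a sequence bound by ETS factors, was found in 28.1% of member windows, in 12.4% of the windows of all measured genes and in 8.82% of all promoters. CCAAT, the core of the NF-Y motif, was found in 50.9% of member windows, 34.3% of measured genes and 33% of all promoters. The GC box GGGCGG was in 61.4%, 57.8% and 42.3% of these sets, and TATAAA in 8.77%, 8.14% and 11.1%. GCATGCGC, the NRF1 motif, was in 1 member window (1.75%, against 3.94% of measured genes and 2.81% of all promoters), and AAGATGGCG, the YY1 motif, was in 0 (0.819% of measured genes and 0.641% of all promoters). Among the members on one side of both controls, 5 higher and 5 lower genes had a window. CCAAT was in 3 of the higher and 4 of the lower ones, and CCGGAAG in 2 of the higher and 2 of the lower ones, so these letters did not separate the directions. The shares of measured genes and of all promoters are not matched to the members for signal. A match describes the letters and does not show that a factor bound there.

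Across the 68 members the differences between bEV and control arrays were small and went both ways. The median difference was -0.02, against 0.001 over all genes, and single members ranged from -0.42 for SNRPB to 0.47 for HNRNPA1. The mean difference was above 0 in 30 members and below 0 in 38, and it was within 0.25 of 0 in 54. The gap between the 2 controls was larger than the mean difference in 40 of the 68 members. With limma over all genes, 0 of 68 members and 0% of all genes had an adjusted p under 0.05. At an unadjusted p under 0.05 there were 13 members (19.1%), against 11.3% of all genes. Of these, 7 were higher (10.3%, against 5.92%) and 6 lower (8.82%, against 5.38%). In 59 members (86.8%) the signal was not below the median of all genes. Shares over all genes, here and below, are not matched for signal. The smallest adjusted p of a member was 0.341 (limma), reached by SNRNP40, HNRNPUL2 and SNRPB.

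**Figure D1:**
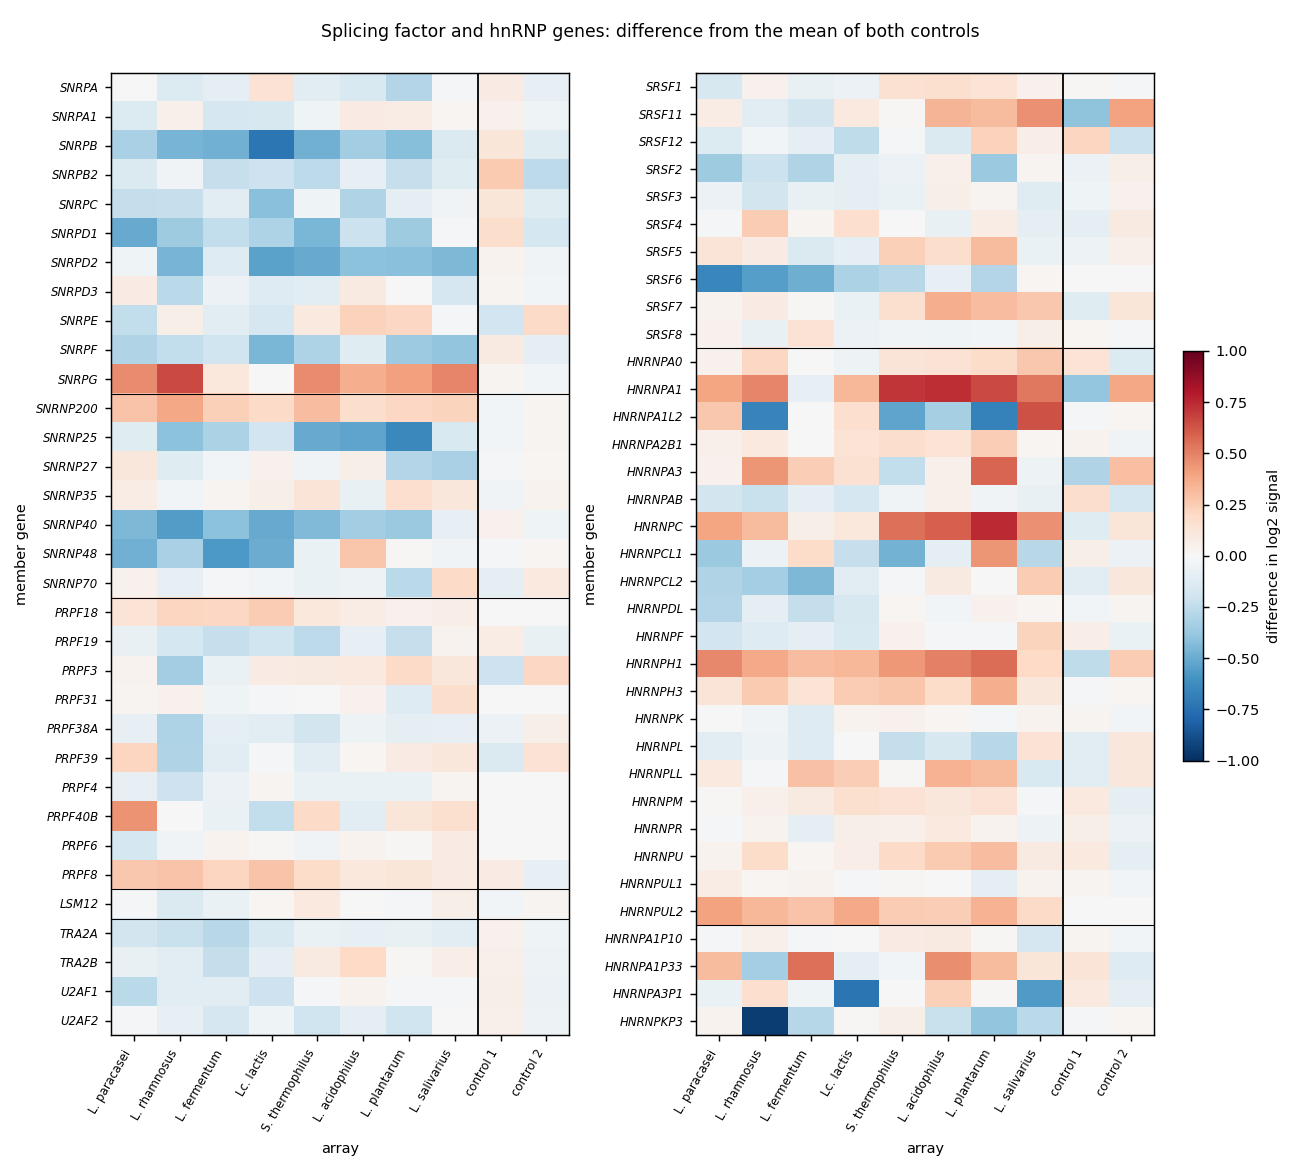
Difference in log2 signal from the mean of both controls for each of the 68 members (rows, in role classes separated by lines) in the 8 bEV arrays (left of the vertical line) and the 2 controls (right of it), red for higher and blue for lower. SNRPB, SNRPF and SNRNP40 are blue and SNRNP200, HNRNPH3 and HNRNPUL2 red in all 8 bEV arrays, while HNRNPA1 and SRSF11 also differ between the controls.

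All 8 bEV arrays lay above both controls in 5 members (7.35%, against 5.11% of all genes), namely HNRNPUL2, SNRNP200, HNRNPH3, PRPF8 and PRPF18. All 8 lay below both controls in 6 members (8.82%, against 4.07% of all genes), namely SNRPB, SNRNP40, SNRPD2, SNRNP25, SNRPF and TRA2A. Both directions together made up 11 members (16.2%, against 9.18% of all genes). Genes named SNRP or SNRNP made up 5 of the 6 lower and 1 of the 5 higher members, and 18 of all 68 (26.5%). The higher members SNRNP200 and PRPF8 both encode U5 snRNP proteins. None of the 11 passed the adjusted threshold of limma. These counts depended on having both controls. Set against control 2 alone, 10 members had all bEV arrays higher (14.7%, against 15.5% of all genes) and 9 lower (13.2%, against 12.4%). Set against control 1 alone, 11 were higher (16.2%, against 14.5%) and 13 lower (19.1%, against 14.3%). Control 1 alone brought in 6 higher members, SRSF7, SRSF11, HNRNPA1, HNRNPA3, HNRNPC and HNRNPH1, and control 2 alone brought in 5 others, SNRPG, HNRNPA0, HNRNPA2B1, HNRNPM and HNRNPU.

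**Figure D2:**
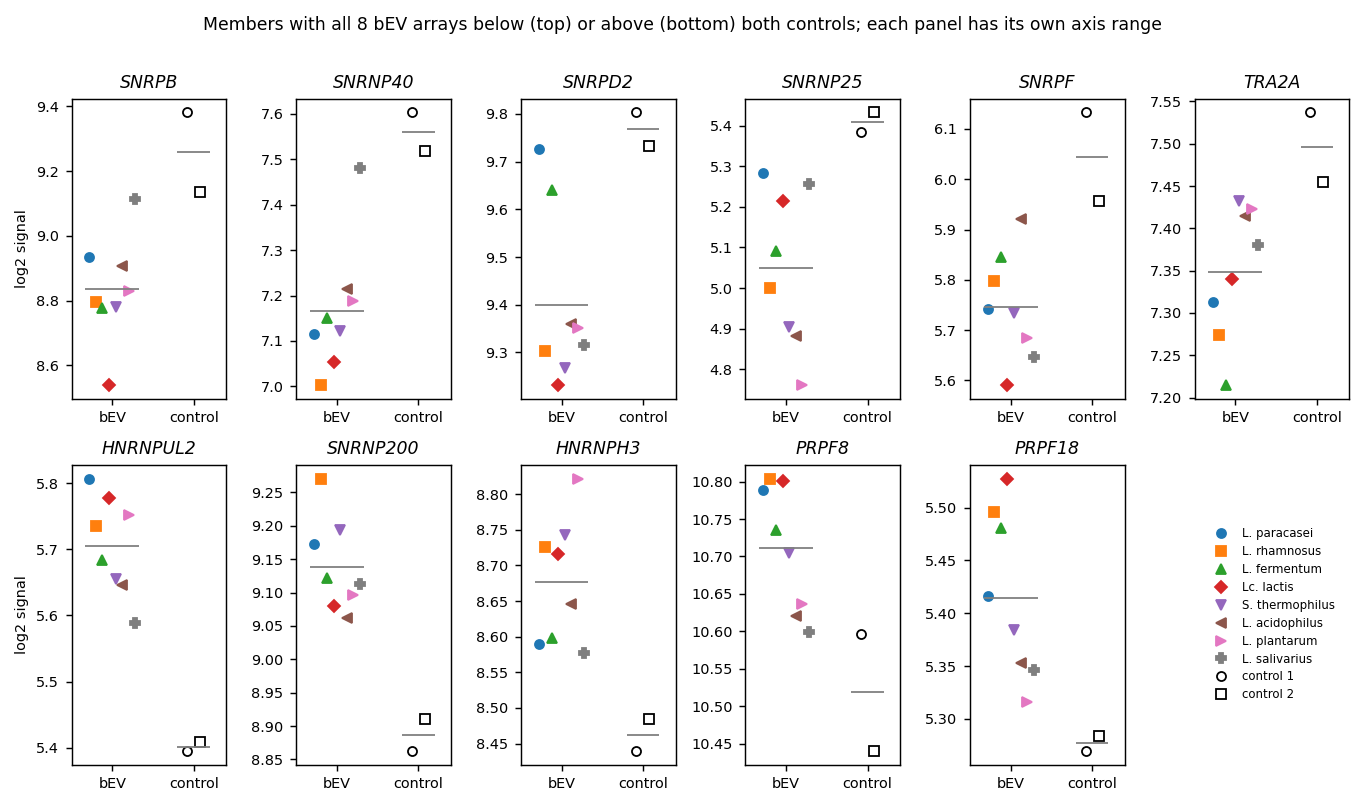
Log2 signal of the 11 members whose 8 bEV arrays (left, 1 symbol per strain) do not overlap the 2 controls (right, open symbols), with group means as grey lines and a separate axis range in each panel. The top row shows the 6 members with lower signals, where SNRNP40 in L. salivarius (7.48) and SNRPD2 in L. paracasei (9.73) lie close to the controls, and the bottom row shows the 5 with higher signals.

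The Sm and other U1 and U2 snRNP proteins leaned towards lower signals. Of 11 genes, 9 had a mean difference below 0 and 3 had all bEV arrays below both controls, and the class median was -0.16. That median was below 0 in 8 of 8 bEV arrays, from -0.23 in L. rhamnosus to -0.04 in L. salivarius, but control 1 also lay above control 2 by a median of 0.17 in this class. Against control 2 alone the class median was -0.06, and against control 1 alone it was -0.30. The SNRPB gene on chromosome 20 encodes SmB and SmB′, which belong to the Sm ring. Its signal was 8.91 in L. acidophilus, 8.80 in L. rhamnosus, 8.83 in L. plantarum, 9.12 in L. salivarius, 8.78 in S. thermophilus, 8.94 in L. paracasei, 8.78 in L. fermentum and 8.54 in Lc. lactis, against 9.38 and 9.14 in the controls. L. salivarius came closest to the controls and Lc. lactis was lowest. On average the difference was -0.42 ± 0.13 (SE, 8 bEV arrays against 2 controls), or 0.746 of the control signal, with an adjusted p of 0.341 in limma.

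SNRPD2, on chromosome 19, encodes SmD2, another subunit of the ring. Its signal ranged from 9.23 through a median of 9.33 to 9.73 in the bEV arrays, against 9.80 and 9.73 in the controls. L. paracasei (9.73) and L. fermentum (9.64) lay near the controls, while the other 6 bEV arrays lay between 9.23 and 9.36. On average SNRPD2 differed by -0.37 ± 0.13, with an adjusted p of 0.360 in limma. SNRPF, on chromosome 12, encodes SmF, which joins SmE and SmG during ring assembly. Its signal ranged from 5.59 through 5.74 to 5.92 in the bEV arrays, against 6.13 and 5.96 in the controls, a difference of -0.30 ± 0.11 with an adjusted p of 0.354 in limma. The highest bEV value, in L. acidophilus, was close to control 2.

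The other members of the ring overlapped with the controls in the probe sets used. SNRPD1 (SmD1) had a difference of -0.31 ± 0.13, with 8.16, 8.33 and 8.65 as the lowest, median and highest bEV signals, against 8.84 and 8.49 in the controls. Its L. salivarius array lay between the controls and the other 7 lay below both. SNRPD3 (SmD3) differed by -0.07 and SNRPE (SmE) by 0.01, both less than their SE of 0.11 and 0.14. SNRPE has a second probe set of lower signal, where the difference was -0.26, so the sign for this gene depended on the probe set. In that second probe set all bEV arrays (4.59 to 5.02) lay below both controls (5.16 and 5.03). SNRPG (SmG) went the other way. Its signal was 4.82 in L. acidophilus, 5.13 in L. rhamnosus, 4.87 in L. plantarum, 4.95 in L. salivarius, 4.94 in S. thermophilus, 4.94 in L. paracasei, 4.57 in L. fermentum and 4.46 in Lc. lactis, against 4.49 and 4.44 in the controls. The first 7 lay above both controls and Lc. lactis between them, and the mean difference was 0.37 ± 0.15, with an adjusted p of 0.384 in limma. Proteins particular to U1 and U2 had smaller mean differences than SNRPD1 and SNRPG, but SNRPC and SNRPB2 had larger ones than SNRPD3 and SNRPE. The U1 proteins SNRPA and SNRPC differed by -0.08 and -0.18, and the U2 proteins SNRPA1 and SNRPB2 by -0.04 and -0.16. SNRPB2 had 1 of the larger gaps between the controls, with 8.62 in control 1 and 8.10 in control 2, and its bEV arrays (8.10 to 8.33) lay closer to control 2. Against control 2 alone its difference was 0.10, the opposite sign, and against control 1 alone it was -0.43.

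The 7 SNRNP genes were mixed, with 1 member above and 2 below both controls in all bEV arrays and a median difference of -0.07. SNRNP200, on chromosome 2, encodes BRR2, the helicase that unwinds U4 from U6 when the spliceosome is activated. Its signal was 9.06, 9.12 and 9.27 as the lowest, median and highest of the bEV arrays, against 8.86 and 8.91 in the controls. The bEV arrays formed a narrow band (SD 0.07) that the controls did not reach, and the mean difference was 0.25 ± 0.09, or 1.19-fold, with an adjusted p of 0.360 in limma. SNRNP40, on chromosome 1, encodes a WD-repeat protein of the same U5 snRNP and went the other way. Its signal was 7.22 in L. acidophilus, 7.00 in L. rhamnosus, 7.19 in L. plantarum, 7.48 in L. salivarius, 7.12 in S. thermophilus, 7.12 in L. paracasei, 7.15 in L. fermentum and 7.05 in Lc. lactis, against 7.60 and 7.52 in the controls. L. salivarius stood apart from the other bEVs and next to the controls. SNRNP40 differed on average by -0.39 ± 0.12, or 0.761 of the control signal, with an unadjusted p of 0.0051 and an adjusted p of 0.341 in limma.

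SNRNP25, SNRNP35 and SNRNP48 encode proteins of the U11/U12 di-snRNP, which recognizes the rare introns of the minor spliceosome. The signal of SNRNP25, on chromosome 16, ranged from 4.76 through 5.05 to 5.28 in the bEV arrays, against 5.38 and 5.43 in the controls. L. plantarum was lowest and L. paracasei came closest to the controls, and the mean difference was -0.36 ± 0.14, with an adjusted p of 0.377 in limma. SNRNP48 varied more between bEVs, with 6.29, 6.67 and 7.14 as the lowest, median and highest values, against 6.84 and 6.88 in the controls. L. acidophilus was above both controls, and L. fermentum, Lc. lactis and L. paracasei, which come last in the sample order, were between 6.29 and 6.38. These 3 late arrays were also the lowest bEV arrays in SNRPA1, SNRPE, U2AF1, SRSF1, SRSF7, HNRNPA0, HNRNPA1, HNRNPDL and HNRNPU. The remaining members were not split in this way in either direction. A part of sample order was not tested, and strain and order cannot be told apart. SNRNP35 differed by 0.06 ± 0.09, so the 3 U11/U12 genes did not share a pattern. SNRNP70, the U1 protein that binds the first stem loop of U1 RNA, differed by -0.04, and SNRNP27 of the tri-snRNP by -0.07.

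The 10 PRPF genes had a median difference of 0.002, with 2 above both controls in all bEV arrays and 0 below. PRPF8, on chromosome 17, encodes the large scaffold at the center of the catalytic spliceosome. Its signal ranged from 10.60 through 10.72 to 10.80 in the bEV arrays, against 10.60 and 10.44 in the controls. L. salivarius lay just above control 1, and Lc. lactis, L. rhamnosus and L. paracasei were highest. Averaged over the bEVs, PRPF8 differed by 0.19 ± 0.10, or 1.14-fold, with an adjusted p of 0.480 in limma. The difference was 0.11 without control 2 and 0.27 without control 1. PRPF18, on chromosome 10, encodes a factor of the second catalytic step. Its signal ranged from 5.32 through 5.40 to 5.53, against 5.27 and 5.28 in the controls, a difference of 0.14 ± 0.09 with an adjusted p of 0.608 in limma. The controls were nearly equal, and L. plantarum lay close to them.

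The remaining PRPF genes overlapped with the controls. PRPF3, PRPF4, PRPF6 and PRPF31 encode proteins of the tri-snRNP and differed by 0.02, -0.06, -0.01 and 0.01. PRPF19, the ubiquitin ligase that gives its name to a complex needed for activation, differed by -0.15 ± 0.10, and PRPF38A, which acts at the same stage, by -0.13 ± 0.10 with 7 of 8 bEV arrays below both controls. PRPF39 differed by -0.01, and PRPF40B, below the median signal of all genes, by 0.06. LSM12, the only LSM gene named in the annotation used here, differed by -0.01 ± 0.09.

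U2AF2 and U2AF1 form the dimer that recognizes the 3′ splice site, and TRA2A and TRA2B are SR-like proteins that bind exonic enhancers. All 4 had a mean difference below 0, with a median of -0.09 and a class median below 0 in 8 of 8 bEV arrays, and control 1 lay above control 2 by a median of 0.10. Against control 2 alone the median was -0.04, and against control 1 alone -0.15. The signal of TRA2A, on chromosome 7, ranged from 7.22 through 7.36 to 7.43 in the bEV arrays, against 7.54 and 7.45 in the controls. L. fermentum was lowest, and S. thermophilus came closest to control 2. This gave a mean difference of -0.15 ± 0.09, with an adjusted p of 0.584 in limma. U2AF2 differed by -0.10, U2AF1 by -0.09 and TRA2B by -0.02.

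**Figure D3:**
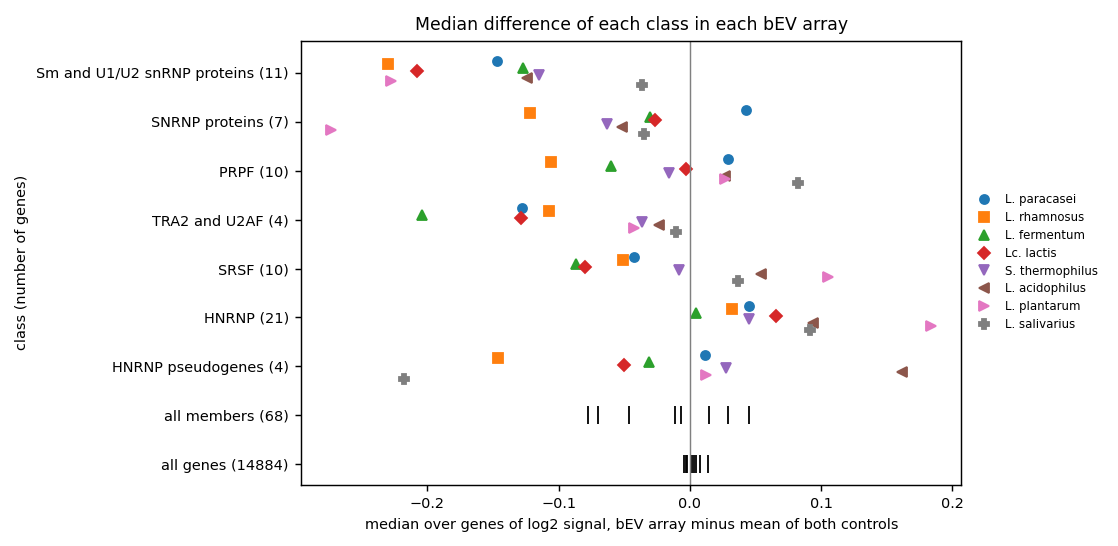
Median difference in log2 signal from the mean of both controls (horizontal axis) in each bEV array (symbols) for each class of members with 4 or more genes, and for all 68 members and all 14884 genes (ticks). The Sm and U1/U2 class lies left of 0 in 8 of 8 bEV arrays (-0.23 to -0.04) and the HNRNP class right of 0 in 8 of 8 (0.005 to 0.18), with L. plantarum farthest from 0 in the SNRNP and HNRNP classes. The same control mean was subtracted in all 8 arrays.

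In each of the 10 SRSF genes the bEV arrays overlapped with the controls, and the class median was 0.02. SRSF6, an SR protein that binds exonic enhancers, had the lowest difference of the class. Its signal was 9.28 in L. acidophilus, 8.80 in L. rhamnosus, 9.06 in L. plantarum, 9.38 in L. salivarius, 9.08 in S. thermophilus, 8.70 in L. paracasei, 8.86 in L. fermentum and 9.04 in Lc. lactis, against 9.36 and 9.35 in the controls. The controls were nearly equal, 7 of 8 bEV arrays lay below them and L. salivarius lay above. On average SRSF6 differed by -0.33 ± 0.16, with an unadjusted p of 0.054 and an adjusted p of 0.451 in limma. For SRSF11, an SR-related nuclear protein, the controls themselves were far apart. They had 6.88 and 7.69, a gap of 0.81, and 7 of the 8 bEV arrays lay between them, with the highest bEV value (7.75, in L. salivarius) above both. Its difference of 0.13 took the opposite sign, -0.28, against control 2 alone, and was 0.53 against control 1 alone. SRSF7 was above the control mean in 7 of 8 bEV arrays, with a difference of 0.15 ± 0.13. SRSF2 differed by -0.16, and SRSF1, SRSF3, SRSF4, SRSF5, SRSF8 and SRSF12 had differences between -0.07 and 0.08.

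The 21 HNRNP genes leaned towards higher signals. The mean difference was above 0 in 13 and below 0 in 8, the class median was 0.09, and this median was above 0 in 8 of 8 bEV arrays, from 0.005 in L. fermentum to 0.18 in L. plantarum. Control 1 and control 2 differed by a median of -0.01 in this class, and the class median was 0.07 against control 2 alone and 0.001 against control 1 alone. HNRNPUL2, on chromosome 11, is a relative of the scaffold protein hnRNP U. Its signal was 5.65 in L. acidophilus, 5.73 in L. rhamnosus, 5.75 in L. plantarum, 5.59 in L. salivarius, 5.66 in S. thermophilus, 5.81 in L. paracasei, 5.68 in L. fermentum and 5.78 in Lc. lactis, against 5.39 and 5.41 in the controls. The lowest bEV array was clear of both controls, which were nearly equal. HNRNPUL2 differed on average by 0.30 ± 0.09, or 1.23-fold, with an unadjusted p of 0.0058 and an adjusted p of 0.341 in limma. Its relatives HNRNPU and HNRNPUL1 differed by 0.14 and 0.01, and HNRNPU was above the control mean in 8 of 8 bEV arrays.

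HNRNPH1, HNRNPH3 and HNRNPF belong to a family that binds runs of G. The signal of HNRNPH3, on chromosome 10, ranged from 8.58 through 8.68 to 8.82 in the bEV arrays, against 8.44 and 8.48 in the controls. The groups did not overlap, L. plantarum was highest, and the mean difference was 0.21 ± 0.10, with an adjusted p of 0.427 in limma. HNRNPH1 had 7.49, 7.70 and 7.85 as the lowest, median and highest bEV values, against 7.04 and 7.55 in the controls. The bEV arrays were clear of control 1, but L. salivarius lay below control 2. The mean difference was 0.40 ± 0.13, with an unadjusted p of 0.010 and an adjusted p of 0.345 in limma, and it was smaller than the control gap of 0.51. Without control 1 it was 0.14, and without control 2 it was 0.65. HNRNPF differed by -0.04.

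HNRNPC binds uridine tracts and HNRNPA1 is best known for favoring exon skipping. HNRNPC had a signal of 7.77 in L. acidophilus, 7.49 in L. rhamnosus, 7.92 in L. plantarum, 7.63 in L. salivarius, 7.72 in S. thermophilus, 7.56 in L. paracasei, 7.23 in L. fermentum and 7.28 in Lc. lactis, against 7.05 and 7.29 in the controls. L. fermentum and Lc. lactis lay between the controls and the other 6 above both, and the mean difference was 0.40 ± 0.16, with an adjusted p of 0.384 in limma. HNRNPA1 had a mean difference of 0.47 ± 0.21, with an adjusted p of 0.424 in limma, and this was the largest of the 68 members only with control 1 included. Its signal was 8.65 in L. acidophilus, 8.40 in L. rhamnosus, 8.58 in L. plantarum, 8.44 in L. salivarius, 8.63 in S. thermophilus, 8.31 in L. paracasei, 7.83 in L. fermentum and 8.24 in Lc. lactis, against 7.53 and 8.30 in the controls. The controls were 0.77 apart, and 6 of the 8 bEV arrays lay above both. Without control 1 the difference was 0.09, and without control 2 it was 0.86. The largest difference without control 1 was that of SNRPG, at 0.40.

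Further HNRNP genes overlapped with the controls. HNRNPK differed by -0.01, HNRNPR by 0.01, HNRNPM by 0.09 and HNRNPA2B1 by 0.11, the last with 8 of 8 bEV arrays above the control mean. HNRNPA0 differed by 0.12, HNRNPLL by 0.14, and HNRNPAB, HNRNPDL and HNRNPL by -0.10, -0.09 and -0.10. The spread over the 8 bEV arrays ran from an SD of 0.05 in HNRNPUL1 to 0.48 in HNRNPA1L2, with a median of 0.13 over the members and 0.17 over all genes.

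Some genes with near-identical copies varied widely. A probe set for one copy may take up RNA of another, and this was not tested. HNRNPA1L2, an HNRNPA1-like gene below the median signal, had 4.03 in L. acidophilus, 3.70 in L. rhamnosus, 3.69 in L. plantarum, 5.00 in L. salivarius, 3.84 in S. thermophilus, 4.63 in L. paracasei, 4.36 in L. fermentum and 4.53 in Lc. lactis, against 4.35 and 4.38 in the controls. The bEV arrays lay on both sides of nearly equal controls. HNRNPA3, with 2.82 to 3.65 in the bEV arrays against 2.76 and 3.36 in the controls, was also below the median signal, and its difference of 0.15 became -0.15 against control 2 alone and 0.46 against control 1 alone. The HNRNPC-like genes HNRNPCL1 and HNRNPCL2 both differed by -0.11. The 4 pseudogenes had differences between -0.25 and 0.16. HNRNPA1P10 had signals of 11.70 to 11.95 in the bEV arrays, against 11.89 and 11.84 in the controls, a difference of 0.01, and its second probe set differed by -0.13. In all, 9 members lay below the median signal of all genes, namely PRPF40B, SRSF12, HNRNPA1L2, HNRNPA3, HNRNPCL1, HNRNPCL2, HNRNPA1P33, HNRNPA3P1 and HNRNPKP3.

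**Figure D4:**
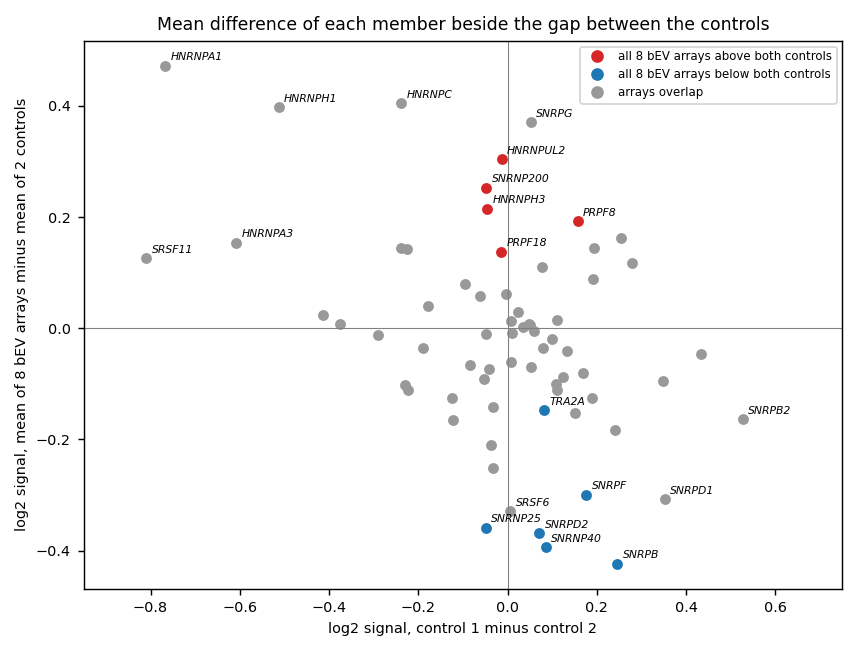
Mean difference in log2 signal between the 8 bEV arrays and the 2 controls (vertical axis) beside control 1 minus control 2 (horizontal axis) for each member, in red or blue where all 8 bEV arrays lie above or below both controls. HNRNPA1, HNRNPH1, HNRNPA3 and SRSF11 lie far left, where control 1 is lower by 0.51 to 0.81, and HNRNPUL2, SNRNP200, HNRNPH3 and PRPF18 lie near a control gap of 0.

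Single bEVs were then set against the mean of both controls, with a threshold of 1.5-fold (0.58 on the log2 scale) and no replicate. Summed over the 8 bEVs, 15 of 544 member differences reached it (2.76%, in 10 members), against 3.96% over all genes. Of these, 8 were higher (1.47%, against 1.98% of all genes) and 7 lower (1.29%, against 1.98%). L. plantarum had 5 such members (7.35%, against 5.15% of all genes), namely HNRNPC (0.75), HNRNPA1 (0.66) and HNRNPA3 (0.59) higher, and HNRNPA1L2 (-0.67) and SNRNP25 (-0.65) lower. L. rhamnosus had 3 (4.41%, against 4.64%), with SNRPG at 0.66, HNRNPA1L2 at -0.67 and the pseudogene HNRNPKP3 at -0.95. The HNRNPKP3 signal there was 2.15, below the 10th percentile of all values (2.20). L. acidophilus had 2 (2.94%, against 3.56%), HNRNPA1 at 0.74 and HNRNPC at 0.60. Lc. lactis had 2 (2.94%, against 3.49%), SNRPB at -0.72 and the pseudogene HNRNPA3P1 at -0.73, the latter with a signal of 2.20, at about that percentile. S. thermophilus (HNRNPA1, 0.72), L. paracasei (SRSF6, -0.65) and L. salivarius (HNRNPA1L2, 0.64) had 1 each (1.47%, against 3.77%, 4.66% and 2.94%). L. fermentum had 0, against 3.46% of all genes, with HNRNPA1P33 (0.55) and SNRNP48 (-0.58, just short of the threshold) as its extremes.

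Except in L. plantarum, the share of members at 1.5-fold was below that of all genes. The calls of HNRNPA1, of HNRNPA3 and of HNRNPC in L. acidophilus did not hold against control 2. Against control 2 alone, HNRNPA1 differed by 0.36 in L. acidophilus, 0.28 in L. plantarum and 0.33 in S. thermophilus, HNRNPA3 by 0.28 in L. plantarum, and HNRNPC by 0.48 in L. acidophilus. The controls themselves differed by 1.5-fold in 3 members (4.41%, against 5.44% of all genes), which were SRSF11, HNRNPA1 and HNRNPA3. Against both controls, each taken alone and in the same direction, 10 member differences reached 1.5-fold (1.84%, against 1.88% over all genes). There were 14 against control 2 alone (2.57%, against 6.05% over all genes) and 37 against control 1 alone (6.8%, against 6.61%). In limma fits of single bEVs, where a lone array takes its spread from the controls, the smallest adjusted p of a member was 0.561 (HNRNPC in L. plantarum).

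The members differed in length, and longer genes tended to have higher differences, with a Spearman correlation of 0.26 between genomic length and mean difference over 64 members (pseudogenes left out) and 0.18 over all genes. All genes share the same 10 arrays and are not independent, so this is a description. For example, SNRPD2 and SNRNP25 span 4.86 and 3.84 kb, and SNRNP200 and PRPF8 span 31.2 and 34.2 kb, while SNRNP40, with a negative difference, spans 37.2 kb.

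Of 177 other splicing genes in 6 lists, 131 were named in the annotation used here. All bEV arrays lay above both controls in 8 (6.11%, against 5.11% of all genes) and below in 7 (5.34%, against 4.07%), and limma called 0, with 18 at an unadjusted p under 0.05 (13.7%, against 11.3%). DDX42, an RNA helicase of the U2 snRNP, had 8.98 to 9.39 in the bEV arrays, against 8.95 and 8.77 in the controls, a difference of 0.38. PTBP3, a paralog of the polypyrimidine tract binding protein, differed by 0.37. CWC15, a subunit of the PRP19-related machinery, had 6.15 to 6.53, against 6.76 and 6.75 in the controls, a difference of -0.42, and PPIH, a cyclophilin of the tri-snRNP, differed by -0.38. The list medians ranged from -0.07 for exon junction and export genes to 0.10 for splicing kinases and SR-related proteins.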

How the data were processed

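The authors deposited log2 signals per probe set for 10 arrays. MAS5 stands in the submitters' processing notes and GeneChip Command Console in the methods. How signals were corrected, normalized and summarized was not given in the sources used here, and the deposited values were used unaltered. Groups came from the labels.

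Of 53617 probe sets, 16098 had 1 gene symbol in the platform annotation, 0 had several, and 37519 had no entry in the table used here. Where a gene had several probe sets (779 genes, 3 of them members), the brightest on average stood for it. Members were found by a symbol pattern. Members and gene lists were chosen with earlier results of these data known.

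limma (version 3.58.1, R 4.3.3) compared 8 bEV arrays with 2 controls (8 residual degrees of freedom, prior 5.14), and each bEV with both controls (1 residual degree of freedom, prior 5.1). p-values were adjusted by Benjamini-Hochberg over all 14884 genes. The script was tested on simulated data. Named members were those with no overlap between groups, the extremes of each bEV, the 5 smallest p-values, the 4 largest control gaps, the highest and lowest signal of each class, and genes with probe sets that differ in sign; further members were named to complete each class. Of the other lists, the 2 largest differences in each direction were named. Promoters are RefSeq windows (GRCh38.p14). Alternatives left out each array, and changed normalization, filters, probe sets, threshold and variance model.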

Additional observations from a re-analysis of the deposited data

Results flagged for a closer look

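In 5 of 68 members (7.35%), against 6.5% of all genes, 1 of the 8 bEV arrays stood apart, its gap to the nearest other array divided by the whole range being above Dixon's critical value for 8 values. Chance flags about 1 in 20 such groups. SNRNP40 was highest in L. salivarius, at 7.48 against 7.00 to 7.22 in the other bEVs and 7.60 and 7.52 in the controls (gap share 0.556). PRPF3 was lowest in L. rhamnosus, at 6.63 against 6.91 to 7.16 in the other bEVs and 6.77 and 7.18 in the controls (0.530). PRPF6 was lowest in L. paracasei, at 7.81 against 7.95 to 8.07 in the other bEVs and 7.99 and 7.98 in the controls (0.550). The pseudogene HNRNPKP3 was lowest in L. rhamnosus, at 2.15 against 2.71 to 3.16 in the other bEVs and 3.09 and 3.12 in the controls (0.555). That lowest signal was below the 10th percentile of all values. The pseudogene HNRNPA1P10 was lowest in L. salivarius, at 11.70 against 11.85 to 11.95 in the other bEVs and 11.89 and 11.84 in the controls (0.588).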

How the results depend on the processing

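Leaving out 1 array at a time gave 5 to 11 members higher and 6 to 13 lower in all bEV arrays, a median member difference of -0.0309 to -0.0056, 0 to 0 members called by limma, and 10 to 37 member differences at 1.5-fold. The controls set the upper ends, with 10 higher members without control 1, and 11 higher, 13 lower and 37 differences at 1.5-fold without control 2. At 2-fold, 0 member differences remained, and 9 reached 1.5-fold among the 59 members with a signal not below the median of all genes. For 24 named members, 397 of 403 other values kept their direction and side of the threshold and 6 reversed. These were SNRPB2 (0.0998), SRSF11 (-0.2789) and HNRNPA3 (-0.1501), both without control 1 and as the smaller difference against either control, and without control 2 they differed by -0.4266, 0.5309 and 0.4574. The cause was not tested. None of the 11 members without overlap between groups reversed. Where arrays were left out or 1 control stood alone, this followed from how the 11 were chosen. With 1 control left out, limma takes the spread from the bEV arrays. The smallest adjusted p of a named member in any setting was 0.129 (limma). No paired analysis was possible because only the controls carry replicate numbers. The arrays of L. paracasei, L. fermentum and Lc. lactis come last in the sample order, and strain and order cannot be told apart. Control 2 stands directly before these arrays, and control 1 stands first, before the other bEV arrays. The gap between the controls and the sample order therefore cannot be told apart either.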
